A study of Saccharomyces cerevisiae and Saccharomyces paradoxus and Saccharomyces cerevisiae x Saccharomyces paradoxus with 12 samples.

Results

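The genes described here encode the proteins of the small (40S) subunit of the cytosolic ribosome of budding yeast, from RPS0A to RPS31. They were chosen by name, with earlier results of these data known. The list held 56 genes for 32 proteins, and 48 of the genes had a row among the 5226 genes of the deposited count table. The 48 cover every protein: 8 proteins come from a single gene, 16 from a duplicated pair with both genes counted, and 8 from a pair with 1 gene counted. The remaining 8 genes, RPS6B, RPS7B, RPS9B, RPS11B, RPS21B, RPS26A, RPS27B and RPS30B, were not analysed here.

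The counts came from RNA-seq, which measures mRNA abundance, and from ribosome profiling (Ribo-seq), which reads out the mRNA stretches covered by ribosomes and so measures ribosome occupancy. The groups were a diploid Saccharomyces cerevisiae strain (GSY83), a diploid strain of its close relative S. paradoxus (GSY82) and the F1 hybrid of both species (GSY88), with 2 libraries per assay in each. All strains grew in YEP+D, a rich glucose medium, at 30°C to an OD600 of 0.6 to 0.9, and all cultures received cycloheximide, which stalls ribosomes, 5 min before extraction. Reads of a hybrid library were deposited as separate S. cerevisiae and S. paradoxus allele columns, so that 12 libraries gave 16 columns of 6116133 to 8910405 counts. Whether the 2 libraries of a group were grown as separate cultures is not stated in the labels, and the p-values therefore describe the spread between these samples, which may be technical.

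The small subunit binds the mRNA and reads its codons, and its proteins are made in near-equal numbers because each occurs once in a ribosome. In yeast most of them are encoded by a pair of duplicated genes, called A and B, and their promoters are controlled together by Rap1, Fhl1, Ifh1 and Sfp1 according to nutrient supply. A ratio between the parents combines differences near the gene (cis) with differences in the cell's regulators (trans), whereas both alleles in a hybrid share the same regulators, so a ratio between them reflects cis differences.

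The 48 genes were strongly expressed in every column, with 504 to 60135 counts each. Together they took 6.75% and 6.79% of the counts in the S. cerevisiae RNA-seq libraries and 9.11% and 7.18% in those of S. paradoxus. In Ribo-seq they took 5.92% and 6.42% in S. cerevisiae against 7.23% and 8.07% in S. paradoxus. Both S. cerevisiae libraries thus lay below both S. paradoxus libraries in each assay, although an exact two-sided permutation test of 2 against 2 libraries cannot give a p below 0.333.

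In the hybrid the S. cerevisiae alleles took 8.74% and 6.56% of their RNA-seq columns and the S. paradoxus alleles 8.47% and 6.13%, so that within each library the S. cerevisiae alleles took the larger share, while the libraries differed by more than the alleles of a library. In hybrid Ribo-seq the shares were 7.92% and 7.80% for the S. cerevisiae alleles and 7.60% and 7.51% for the S. paradoxus alleles, again with the S. cerevisiae alleles higher within each library. Replicate 1 stood above replicate 2 in several RNA-seq groups: the members' median log2 difference, replicate 2 minus replicate 1, was -0.36 in S. paradoxus and -0.43 and -0.41 for the hybrid's S. cerevisiae and S. paradoxus alleles, against 0.04 in S. cerevisiae. The Ribo-seq groups differed by medians of -0.01 to 0.16. The counts of the 48 members that passed a test are therefore also given without each library that moves them by more than 1.5 times. The share of all genes that passed is not given for those fits, nor for other alternative settings where no share stands beside the count. Such counts describe how the calls depend on the libraries or the setting, and not how the members compare with other genes.

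**Figure D1:**
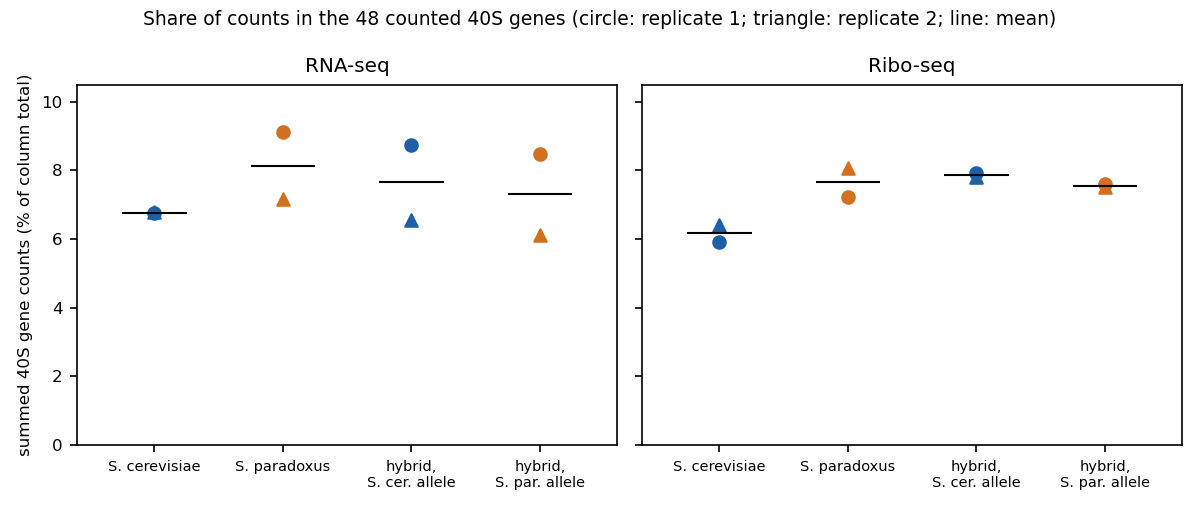
Percent of all counts of a column that fell in the 48 counted small subunit genes (vertical axis), for RNA-seq (left) and Ribo-seq (right), with each point 1 column and the line the mean of 2. The S. cerevisiae points lie at 6.75% and 6.79% (RNA-seq) and 5.92% and 6.42% (Ribo-seq), below both S. paradoxus points, while in the hybrid the ranges of the RNA-seq alleles overlap, 6.56% to 8.74% against 6.13% to 8.47%.

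Levels were compared between proteins as CPM (counts relative to the TMM-scaled library size) per kb of coding length, summing both genes of a pair, for the 24 proteins with every gene counted. RPS31, a single gene that encodes a fusion of ubiquitin and a small subunit protein, had the highest mRNA level in S. cerevisiae at 8515 ± 311 CPM per kb (SD, n = 2), followed by RPS12 at 7298 ± 164. In S. paradoxus the same 2 genes led, RPS12 at 13445 ± 5977 and RPS31 at 12634 ± 3485, and their order was not separated by the replicate spread. The lowest protein in all 16 columns was RPS22, with mRNA at 1757 ± 66 CPM per kb in S. cerevisiae against 2071 ± 360 in S. paradoxus.

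Occupancy followed a similar order, with RPS31 at 9855 ± 749 and RPS22 at 2099 ± 5 CPM per kb in S. cerevisiae, and RPS31 at 11804 ± 828 and RPS22 at 2634 ± 542 in S. paradoxus. RPS25, whose protein is needed for initiation at certain viral RNA elements, stood at 9236 ± 923 and 11919 ± 1471 CPM per kb of occupancy and was within the replicate spread of RPS31 in both species. The proteins were spread less in occupancy than in mRNA within each parent: the coefficient of variation over the 24 proteins was 43.6% ± 0.55 (SD, n = 2) for mRNA and 38.2% ± 0.51 for occupancy in S. cerevisiae. In S. paradoxus it was 49.0% ± 11.05 for mRNA and 37.4% ± 3.07 for occupancy, and in neither species did the assays overlap. Over the 48 genes the mRNA levels per kb of both parents correlated with a Pearson r of 0.908 (Spearman 0.864) and their occupancies with 0.885 (Spearman 0.885). These correlations are across genes, which share libraries and coding length and are not replicates.

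**Figure D2:**
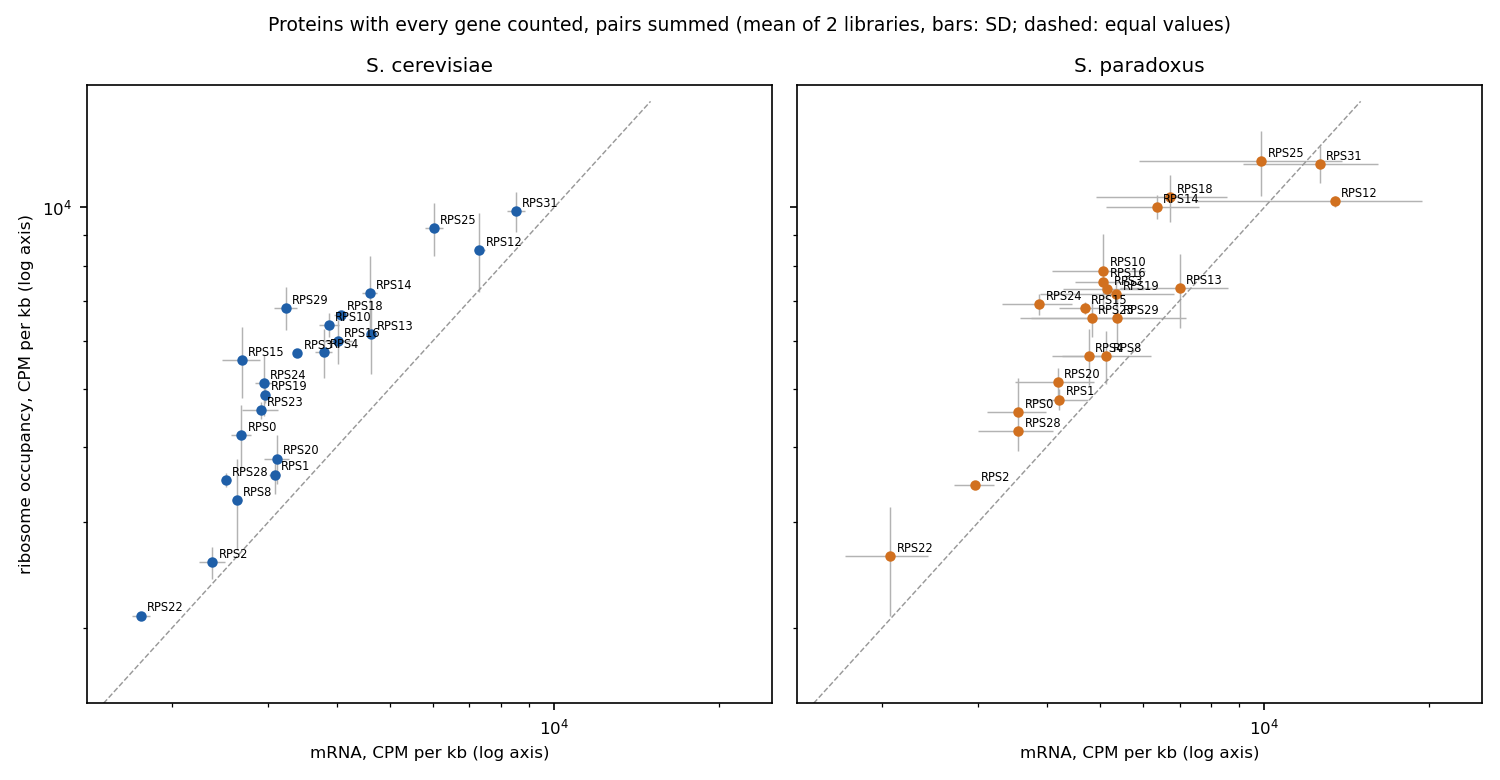
Occupancy against mRNA level, both in CPM per kb on log axes, of 22 of the 24 proteins with every gene counted (pairs summed) in S. cerevisiae (left) and S. paradoxus (right), with points the mean and bars the SD of 2 libraries and the dashed line equal values. RPS31, RPS12 and RPS25 lie at the top and RPS22 at the bottom in both species, at 1757 and 2071 CPM per kb of mRNA.

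Between the parents, small subunit mRNAs were lower in S. cerevisiae: 21 of the 48 genes were lower and 1 was higher (edgeR quasi-likelihood test, Benjamini-Hochberg adjusted p below 0.05 over 5158 genes). Of all genes tested, 21.6% were lower and 21.9% higher by the same rule. Log2 values here are S. cerevisiae minus S. paradoxus. The members' median was -0.55, with a range of -1.10 to 0.79 and 45 of 48 below 0, beside a median of -0.003 over all genes. Both S. cerevisiae values lay below both S. paradoxus values for 41 members, which holds for 38.7% of all genes, above for RPS9A and RPS22B, and overlapped for 5.

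Of the 8 single-copy genes 5 were lower in mRNA, beside the 21.6% of all genes that were, and the values of all 8 were below 0, with a median of -0.58. The number was 1 without S. paradoxus RNA-seq replicate 1 or either S. cerevisiae RNA-seq library, 2 without either hybrid Ribo-seq library and 8 without either hybrid RNA-seq library. RPS3 (-0.61), which lies where the mRNA enters the subunit, RPS12 (-0.88), RPS13 (-0.60) and RPS15 (-0.81), which is needed for export of the immature subunit from the nucleus, were among those that passed. RPS2 (-0.32), another protein of the mRNA entry, RPS20 (-0.43) and RPS31 (-0.57) did not pass. With total counts as the only scaling the median of the 8 was -0.30 and 1 passed. RPS12 (YOR369C) had 3203 and 3103 CPM in S. cerevisiae and 7634 and 3982 in S. paradoxus, a log2 difference of -0.88 (SE 0.33, edgeR adjusted p = 0.0459). Its S. paradoxus libraries differed from each other more than the lower of them differed from S. cerevisiae, and without S. paradoxus RNA-seq replicate 1 the value was -0.34. The RPS12 call was lost in 10 alternatives, among them that one and total counts as the only scaling (-0.59, edgeR adjusted p = 0.137).

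Among the duplicated genes, RPS8A and RPS8B showed the pattern in both copies. RPS8A (YBL072C, chromosome II, 88523 to 89125, sacCer3) had 627 and 623 CPM of mRNA in S. cerevisiae and 1574 and 1096 in S. paradoxus. RPS8B (YER102W, chromosome V, 363100 to 363702) had 986 and 938 against 1975 and 1556. In neither gene did the groups overlap, and the differences were -1.10 (SE 0.22, edgeR adjusted p = 0.00149) and -0.88 (SE 0.17, edgeR adjusted p = 0.00136). Both calls held under every alternative tried. Summed over the pair, the difference was -0.97 (SE 0.19, edgeR adjusted p = 0.00128).

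RPS19A and RPS26B were the other members with large differences. RPS19A (YOL121C), whose human counterpart is mutated in Diamond-Blackfan anaemia, had 456 and 432 CPM in S. cerevisiae and 1143 and 698 in S. paradoxus, a difference of -1.05 (SE 0.27, edgeR adjusted p = 0.00709). RPS26B (YER131W), a protein at the mRNA exit, had 670 and 659 against 1513 and 980, a difference of -0.91 (SE 0.27, edgeR adjusted p = 0.0144). The groups did not overlap for either gene, and S. paradoxus replicate 1 was the highest library in both. Without that library the values were -0.65 (edgeR adjusted p = 0.102) and -0.56 (edgeR adjusted p = 0.165).

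RPS22B was the 1 member called higher in S. cerevisiae. It is one of the genes of the pair for RPS22, a protein of the subunit's body (YLR367W, chromosome XII, 856442 to 857317), and had 317 and 297 CPM against 226 and 131 in S. paradoxus. The groups did not overlap, and the difference was 0.79 (SE 0.28, edgeR adjusted p = 0.0369), which fell to 0.44 (edgeR adjusted p = 0.276) without S. paradoxus RNA-seq replicate 2. The call was also lost without either S. cerevisiae RNA-seq library (adjusted p of 0.124 and 0.0945), when one of the hybrid Ribo-seq libraries was omitted (0.0678 and 0.0680), with TMM without ribosomal protein genes (0.0524) and with a replicate block within strain (0.82, edgeR adjusted p = 0.0691). Its partner RPS22A (YJL190C, chromosome X, 74910 to 75302) went the other way, with 355 and 411 CPM against 688 and 583, a log2 difference of -0.73 that passed the test.

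The number of members that passed in mRNA depended on the libraries. It was 5 without S. cerevisiae RNA-seq replicate 1, 7 without replicate 2, and 7 (2 higher, 5 lower) without S. paradoxus RNA-seq replicate 1, where the median was -0.32. It was 37 (2 higher, 35 lower) without either hybrid RNA-seq library, which enter the fit only through the shared estimate of the spread. With total counts as the only scaling, an alternative chosen after the values were seen, the all-gene median was 0.27, the members' median -0.27 and the number that passed 7 (2 higher, 5 lower).

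**Figure D3:**
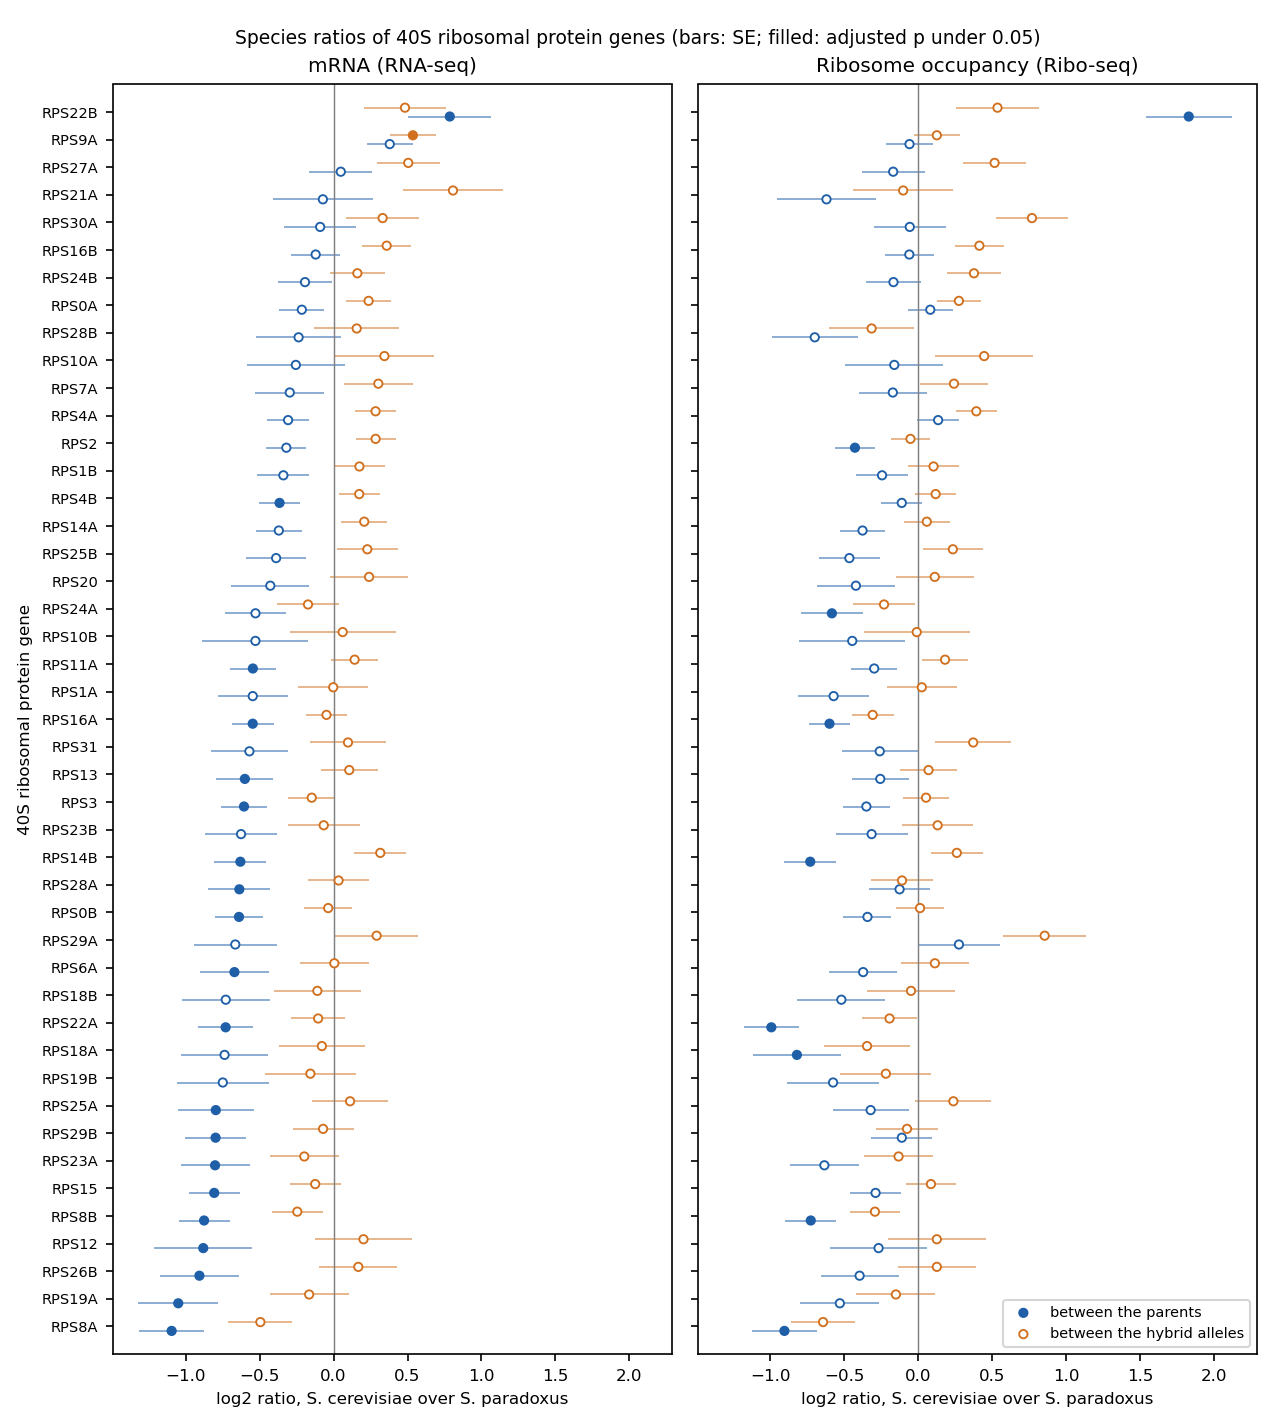
Log2 ratio of S. cerevisiae over S. paradoxus for 45 of the 48 genes (horizontal axis) in mRNA (left) and ribosome occupancy (right), between the parents (blue) and between the hybrid alleles (orange), with bars the SE and filled points those that passed the edgeR test. The blue mRNA points run from -1.10 (RPS8A) to 0.79 (RPS22B) and nearly all lie below 0, whereas the orange mRNA points lie on both sides of 0.

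Ribosome occupancy showed the same direction with fewer calls: 9 of 48 members were lower in S. cerevisiae and 1 was higher, beside 15.0% lower and 18.0% higher of all genes (edgeR, adjusted p below 0.05). The members' median was -0.35 beside 0.02 for all genes. Both S. cerevisiae values lay below both S. paradoxus values for 34 members, beside 36.9% of all genes, above for RPS22B and RPS29A, and overlapped for 12. 6 members, among them RPS8A, RPS8B, RPS14B, RPS16A and RPS22A, were lower in both assays, which use different libraries. They are 28.6% of the 21 members lower in mRNA and 66.7% of the 9 lower in occupancy. Over all genes 538, or 10.4% of those tested, were lower in both, which is 48.2% of the 1116 lower in mRNA and 69.5% of the 774 lower in occupancy.

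The largest difference in occupancy was that of RPS22B, with 354 and 357 CPM in S. cerevisiae and 70 and 130 in S. paradoxus, or 1.83 (SE 0.29, edgeR adjusted p = 0.000398). RPS22A had 470 and 469 CPM against 814 and 1056, or -0.99 (SE 0.19, edgeR adjusted p = 0.00140). Neither gene's groups overlapped, and both calls held under every alternative tried. Summed over the pair, RPS22 occupancy differed by -0.33 (SE 0.19, edgeR adjusted p = 0.209) and its mRNA by -0.24 (SE 0.19, edgeR adjusted p = 0.330), neither of which passed. Copies of a pair are close in sequence and no source used here states how reads that match both were handled, so the division of counts between RPS22A and RPS22B is uncertain, as for every pair.

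RPS8A had 593 and 846 CPM of occupancy in S. cerevisiae and 1463 and 1232 in S. paradoxus, or -0.91 (SE 0.22, edgeR adjusted p = 0.00644), and RPS8B 1132 and 1361 against 2189 and 1937, or -0.73 (SE 0.17, edgeR adjusted p = 0.00584). RPS14B had 701 and 857 CPM against 1386 and 1199, or -0.73 (SE 0.18, edgeR adjusted p = 0.00643). RPS18A (YDR450W), a protein of the head that contacts the large subunit, had 1244 and 1170 CPM against 2022 and 2243, or -0.82 (SE 0.29, edgeR adjusted p = 0.0471). The groups did not overlap for any of these 4 genes. Without S. cerevisiae Ribo-seq replicate 1 the adjusted p was 0.0816 for RPS8A, 0.0677 for RPS8B, 0.0753 for RPS14B and 0.138 for RPS18A. Without S. paradoxus Ribo-seq replicate 1 it was 0.0570 for both RPS8A and RPS14B and 0.107 for RPS18A. The RPS18A call was also lost without S. cerevisiae Ribo-seq replicate 2 (0.186), S. paradoxus Ribo-seq replicate 2 (0.173), either S. cerevisiae RNA-seq library (0.0589 and 0.0591) and either hybrid Ribo-seq library (0.0851 and 0.0849).

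The number of members that passed in occupancy was 2 without S. cerevisiae Ribo-seq replicate 1, 4 without S. paradoxus Ribo-seq replicate 1, 6 without either hybrid Ribo-seq library and 23 without either hybrid RNA-seq library. A fit of the parental columns alone called 17 members (1 higher, 16 lower), beside 45.4% of all genes in that fit.

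**Figure D4:**
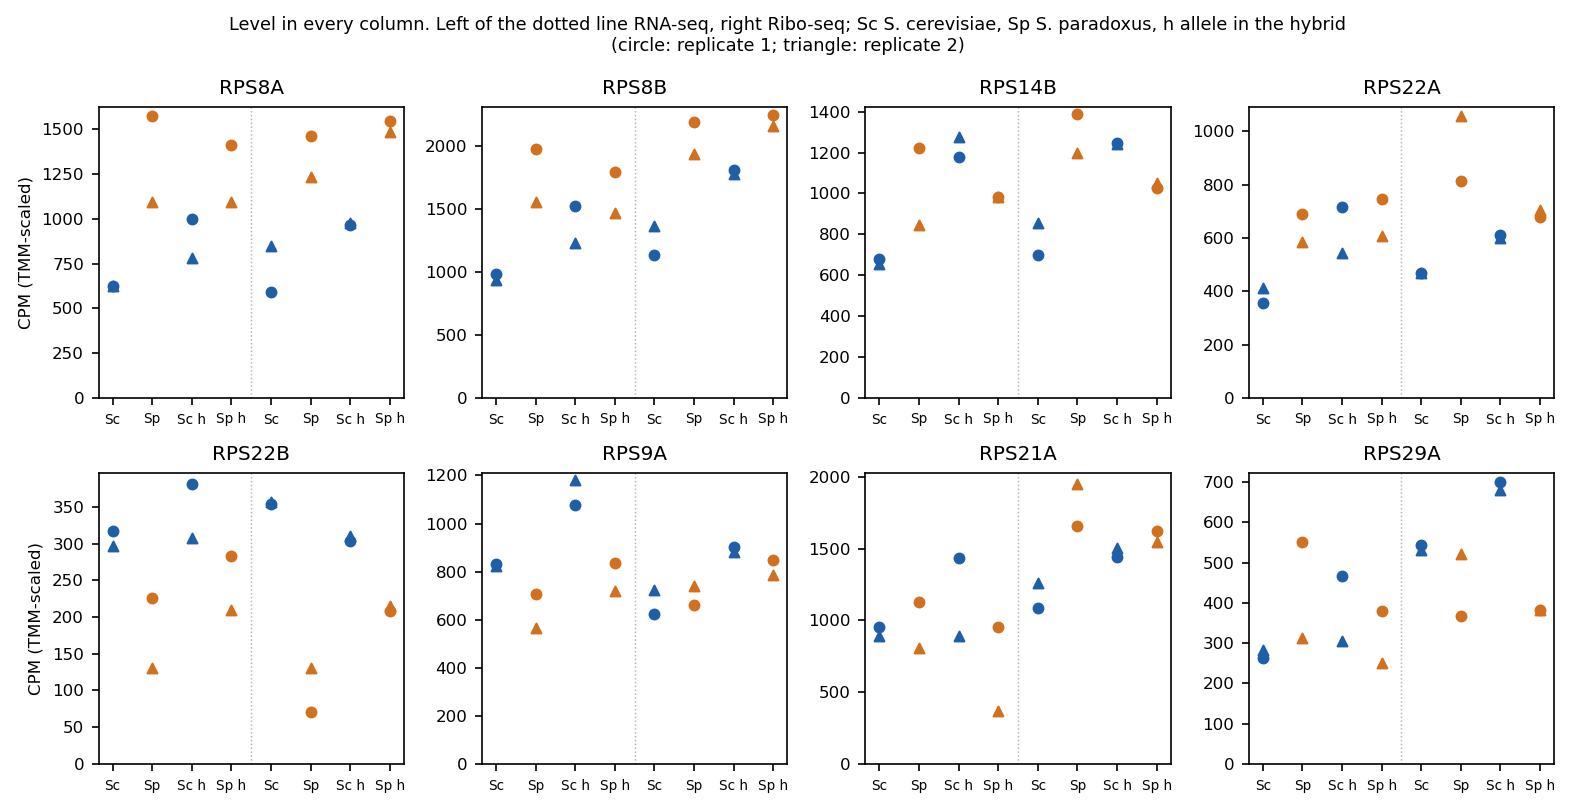
TMM-scaled CPM (vertical axis, from 0) of 8 genes in all 16 columns, RNA-seq left and Ribo-seq right of the dotted line in each panel, with S. cerevisiae in blue and S. paradoxus in orange. The parental RPS8A, RPS8B, RPS14B and RPS22A points of S. cerevisiae lie below those of S. paradoxus in both assays, while for RPS22B they lie above and, in Ribo-seq, reach 354 and 357 against 70 and 130.

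Translation efficiency was taken as the occupancy ratio minus the mRNA ratio on the log2 scale. No member passed between the parents by edgeR or by DESeq2, while 3.47% of all genes passed by edgeR. The members' median was 0.15 beside 0.04 for all genes, and 4 members had an unadjusted edgeR p below 0.05: RPS22B (1.04), RPS29A (0.94), RPS29B (0.69) and RPS4A (0.44), beside 17.5% of all genes. With total counts as the only scaling the members' median was -0.09 and that of all genes -0.19.

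Large subunit and assembly genes were measured in the same tests, in which 21.6% of all genes were lower and 21.9% higher in mRNA, and 15.0% lower and 18.0% higher in occupancy. Of the 69 genes of the large (60S) subunit, 35 were lower and 0 higher in mRNA (median -0.59), and 19 were lower and 0 higher in occupancy (median -0.36). Of the 13 measured factors that assemble the small subunit, 12 were lower in mRNA (median -0.92), among them TSR2 (-1.74), which escorts RPS26, PNO1 (-1.59) and ENP1 (-1.40), and 7 were lower in occupancy (median -0.69). The exception in mRNA was the kinase gene HRR25 (0.25). Of 8 regulators, 3 were lower in mRNA, namely RAP1 (-0.51), IFH1 (-1.31) and the kinase gene SCH9 (-1.23), and the repressor gene STB3 was higher (0.83). FHL1 had -0.48 (edgeR adjusted p = 0.0620) and SFP1 -0.19. The median of the 8 regulators was -0.33 in mRNA but 0.19 in occupancy, where 5 of 8 values were above 0, 2 were called lower and 0 higher. With total counts as the only scaling the mRNA medians were -0.31 for the large subunit, with 16 lower and 0 higher, and -0.64 for the assembly factors, with 8 lower and 1 higher. The regulators then had 1 lower and 2 higher. With 1 library left out at a time, between 13 and 49 large subunit genes passed in mRNA: 13 when S. cerevisiae RNA-seq replicate 2 or S. paradoxus RNA-seq replicate 1 was omitted, and 49 when either hybrid RNA-seq library was. Their occupancy count lay between 7, when S. cerevisiae Ribo-seq replicate 1 was omitted, and 33, when hybrid RNA-seq replicate 1 was. The assembly factors that passed in mRNA numbered 6 when S. cerevisiae RNA-seq replicate 2 was omitted and at most 12. In occupancy they numbered 2 when the second S. cerevisiae or the first S. paradoxus Ribo-seq library was omitted, and 12 when hybrid RNA-seq replicate 1 was. All of these calls were lower. Among the regulators, 0 to 2 were higher and 1 to 4 lower in mRNA.

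Between the alleles of the hybrid, the members showed no common shift toward lower S. cerevisiae values. A fit that pairs the alleles of a library, given in the next paragraph, called more members higher than lower in the S. cerevisiae allele. The mRNA median was 0.15 beside -0.01 for all genes, 31 of 48 values were above 0, and 1 member passed, beside 13.0% of all genes (edgeR, adjusted p below 0.05). That gene was RPS9A (YPL081W), whose protein lies near the mRNA entry, with 1078 and 1180 CPM for the S. cerevisiae allele and 836 and 721 for the S. paradoxus allele, or 0.54 (SE 0.16, edgeR adjusted p = 0.0385). Its alleles did not overlap, but the call was lost without hybrid RNA-seq replicate 2 (0.37, edgeR adjusted p = 0.245), with either S. cerevisiae RNA-seq library left out (adjusted p of 0.0601 and 0.0602), either S. cerevisiae Ribo-seq library (0.0506 and 0.0509) or either hybrid Ribo-seq library (0.0941 and 0.0938). The number of members that passed was 0 without any of those libraries and 2 without hybrid RNA-seq replicate 1.

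Both alleles of a library are paired by construction, and a fit of the hybrid columns with the library as a replicate block removes what they share. The blocked fit used only the 8 hybrid allele columns, from 2 libraries per assay. It left fewer residual degrees of freedom to estimate the spread than the fit of all 16 columns. The SEs and p-values of the blocked fit describe the spread of the allele difference between those libraries, which may be technical. In that fit 23 members were higher and 4 lower in the S. cerevisiae allele, beside 22.3% higher and 19.1% lower of all 5129 genes tested. The lower members included RPS8A (-0.47, SE 0.06, edgeR adjusted p = 0.000159), RPS8B (-0.22) and RPS24A (-0.15). The largest of the higher were RPS21A (0.94, SE 0.13, edgeR adjusted p = 0.000247), RPS9A (0.56), RPS27A (0.52), RPS22B (0.52) and RPS16B (0.38). RPS21A (YKR057W) had 1432 and 892 CPM for the S. cerevisiae allele and 957 and 371 for the S. paradoxus allele: the groups overlapped, whereas within each library the S. cerevisiae allele was higher. RPS22B had 381 and 308 against 283 and 210, and was likewise higher within each library.

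In hybrid occupancy no member passed without the block, beside 8.74% of all genes. With edgeR 7 members had an unadjusted p below 0.05, beside 21.2% of all genes. DESeq2 called 4, a count that does not compare the members with other genes, because the share of all genes is not given for it. The number that passed was 1 without either S. paradoxus RNA-seq library, 4 without hybrid RNA-seq replicate 1 and 5 without hybrid RNA-seq replicate 2. With the library as a replicate block 14 members were higher and 7 lower, beside 14.3% higher and 14.3% lower of all genes.

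In the blocked fit the lower members in occupancy were led by RPS8A (-0.65, SE 0.06, edgeR adjusted p = 1.9e-05), with 964 and 973 CPM for the S. cerevisiae allele against 1543 and 1484. RPS18A (-0.35), RPS16A (-0.32) and RPS8B (-0.30) followed. The higher members were led by RPS29A (YLR388W), a zinc-binding protein of the head, with 700 and 679 CPM against 381 and 382, or 0.85 (SE 0.07, edgeR adjusted p = 1.4e-05). RPS30A (YLR287C-A) had 1773 and 1725 against 995 and 1057, or 0.76 (SE 0.08, edgeR adjusted p = 5.1e-05), and RPS22B 304 and 310 against 208 and 215, or 0.53. In none of these 4 genes with values in each column did the alleles overlap.

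In allelic translation efficiency no member passed without the block, beside 1.38% of all genes. DESeq2 called 0 and no member had an unadjusted edgeR p below 0.05, beside 9.64% of all genes, while 1 passed without hybrid RNA-seq replicate 1. With the library as a block 2 members were higher, RPS29A (0.53) and RPS30A (0.43), beside 3.86% of all genes. In the same fit 5 were lower, RPS21A (-1.05), RPS9A (-0.45), RPS2 (-0.37), RPS18A (-0.32) and RPS16A (-0.29), beside 4.45% of all genes. For RPS21A the RNA-seq alleles differed by 0.94 in the blocked fit and the occupancy alleles by -0.11.

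The test of the parental ratio minus the allelic ratio asks whether the species difference in separate cells differs from that in shared cells. In mRNA this value was below 0 for 47 of 48 members, with a median of -0.60 beside 0.03 for all genes. Only 1 member passed, RPS14B, beside 12.4% of all genes, and 20 had an unadjusted edgeR p below 0.05, beside 29.5%. That fit treats both alleles of a hybrid library as separate samples, although their deviations correlated by 0.80 in RNA-seq over the 5158 genes tested. With a replicate block within strain 14 members passed (0 higher, 14 lower), beside 16.3% of all genes, and with voom and a random library effect 25 (0 higher, 25 lower), beside 28.8%. In occupancy 47 of 48 were below 0, with a median of -0.44 beside 0.03. Again RPS14B passed alone, beside 6.98% of all genes, and 8 had an unadjusted p below 0.05, beside 1134 of the 5158 genes tested. With voom and a random library effect 7 passed, a count that does not compare the members with other genes, because the share of all genes is not given for it. In translation efficiency 0 members passed, beside 0.0% of all genes, by edgeR and by DESeq2, and 0 had an unadjusted p below 0.05, beside 4.67%.

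RPS14B (YJL191W, chromosome X, 73787 to 74611) encodes a protein near the decoding site, which in S. cerevisiae is known to restrain the splicing of its own RPS14B transcript. Its mRNA was at 680 and 656 CPM in S. cerevisiae and 1221 and 847 in S. paradoxus, but at 1177 and 1274 for the S. cerevisiae allele and 984 and 985 for the S. paradoxus allele in the hybrid. The order of the species was thus opposite between parents and alleles, without overlap in either. The parental minus allelic value was -0.95 (SE 0.25, edgeR adjusted p = 0.0270) in mRNA and -0.99 (SE 0.25, edgeR adjusted p = 0.0302) in occupancy, where the parents had 701 and 857 against 1386 and 1199 and the alleles 1249 and 1240 against 1027 and 1051. RPS14A and RPS14B summed gave -0.71 (SE 0.22, edgeR adjusted p = 0.0506) in mRNA and -0.59 (SE 0.22, edgeR adjusted p = 0.131) in occupancy.

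The mRNA call of RPS14B was lost without either S. cerevisiae RNA-seq library (adjusted p of 0.0802 and 0.113), S. paradoxus RNA-seq replicate 1 (0.0904) or either hybrid Ribo-seq library (0.0695 and 0.0691). The occupancy call was lost without S. cerevisiae Ribo-seq replicate 1 (0.12), S. paradoxus Ribo-seq replicate 1 (0.119) or either hybrid Ribo-seq library (0.228 and 0.234). With any 1 of these libraries left out, no member passed in the respective assay. With total counts as the only scaling the mRNA value of RPS14B was -0.62 (edgeR adjusted p = 0.0622). In mRNA 6 members passed without S. paradoxus RNA-seq replicate 2, 11 without hybrid RNA-seq replicate 1 and 3 without hybrid RNA-seq replicate 2. In occupancy 7 (1 higher, 6 lower) passed without either hybrid RNA-seq library and 2 (1 higher, 1 lower) without S. paradoxus Ribo-seq replicate 2. RPS14B lies 298 bases from RPS22A on chromosome X, and RPS22A had parental minus allelic values of -0.63 in mRNA and -0.80 in occupancy, neither of which passed.

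The alleles of the hybrid were also summed to give its total output, which was set against each parent in a fit of 12 libraries and 5159 genes. These comparisons share the hybrid libraries. In mRNA 15 of 48 members were higher in the hybrid than in S. cerevisiae, with 0 lower, beside 14.2% higher of all genes, and the median was 0.38. The leading members were RPS0B (YLR048W) with 0.76 (SE 0.17, edgeR adjusted p = 0.00835), RPS8A with 0.75, RPS22A with 0.74, RPS11A with 0.72 and RPS14B with 0.70. Against S. paradoxus the median was -0.15 and 1 member passed, beside 25.7% of all genes in either direction. That gene was RPS9A, higher in the hybrid by 0.55 (SE 0.16, edgeR adjusted p = 0.0270). The RPS9A call was lost without S. paradoxus RNA-seq replicate 2 (0.41, edgeR adjusted p = 0.126), without either S. cerevisiae RNA-seq library (adjusted p of 0.0508 for both) and with a replicate block within strain (0.54, edgeR adjusted p = 0.132).

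In occupancy 3 members were higher in the hybrid than in S. cerevisiae, beside 5.74% of all genes: RPS8A (0.79, SE 0.22, edgeR adjusted p = 0.0358), RPS24A (0.70) and RPS8B (0.68). The median was 0.38. Against S. paradoxus the median was 0.00 and RPS22B passed alone, higher by 1.36 (SE 0.29, edgeR adjusted p = 0.0132), beside 7.62% of all genes in either direction.

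These counts against the parents rested on few libraries. In mRNA against S. cerevisiae the count was 0 without either S. cerevisiae RNA-seq library and 33 without hybrid RNA-seq replicate 2, and with total counts as the only scaling it was 3, with an all-gene median of -0.30. In mRNA against S. paradoxus it was 0 without either S. cerevisiae RNA-seq library, 2 without S. paradoxus RNA-seq replicate 1 (both higher), 3 without replicate 2 (0 higher, 3 lower) and 18 without hybrid RNA-seq replicate 1 (1 higher, 17 lower). The occupancy count against S. cerevisiae was 0 without S. cerevisiae Ribo-seq replicate 1, either S. cerevisiae RNA-seq library or either hybrid Ribo-seq library, 1 without S. cerevisiae Ribo-seq replicate 2 or either S. paradoxus Ribo-seq library, and 15 without either hybrid RNA-seq library. Against S. paradoxus it was 0 without S. paradoxus Ribo-seq replicate 1 or hybrid Ribo-seq replicate 2, and 2 (1 higher, 1 lower) without either hybrid RNA-seq library.

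The division of counts within a pair was described for the 16 pairs with both genes counted, as the A gene's percent of the pair, for which the exact binomial 95% interval of a single column reached at most 1.502 percentage points to either side. RPS22 differed most between the parents. RPS22A made up 55.4% ± 3.67 (SD, n = 2) of the pair's RNA-seq counts in S. cerevisiae against 78.5% ± 4.53 in S. paradoxus, and 56.9% ± 0.21 against 90.5% ± 2.13 of the Ribo-seq counts. In the hybrid the gap was narrower, at 64.5% ± 1.02 for the S. cerevisiae alleles and 73.4% ± 1.23 for the S. paradoxus alleles in RNA-seq, and 66.3% ± 0.63 against 76.6% ± 0.10 in Ribo-seq.

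RPS16, whose protein reaches the peptidyl site, had a lower A share in S. cerevisiae in all 4 contrasts, with no overlap of columns. RPS16A made up 46.8% ± 0.62 against 54.3% ± 2.49 in parental RNA-seq and 44.9% ± 0.25 against 54.3% ± 1.23 in parental Ribo-seq. In the hybrid it made up 45.7% ± 1.01 against 52.7% ± 0.52 in RNA-seq and 43.3% ± 0.87 against 55.8% ± 0.35 in Ribo-seq. RPS0 leaned the other way in the parents' RNA-seq, with an A share of 58.2% ± 0.29 against 50.8% ± 1.67.

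RPS29A made up 50.2% ± 1.00 of the S. cerevisiae and 34.6% ± 0.32 of the S. paradoxus allele counts of its pair in hybrid Ribo-seq, while in hybrid RNA-seq the shares were 50.1% ± 2.22 and 43.7% ± 3.45. With 2 values in each group, an exact two-sided permutation test of a share cannot go below a p of 0.333. In RPS14 the A gene led in every group, between 61.1% ± 2.48 and 73.9% ± 0.27 of the pair, and in RPS25 between 64.4% ± 0.35 and 80.3% ± 4.81.

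**Figure D5:**
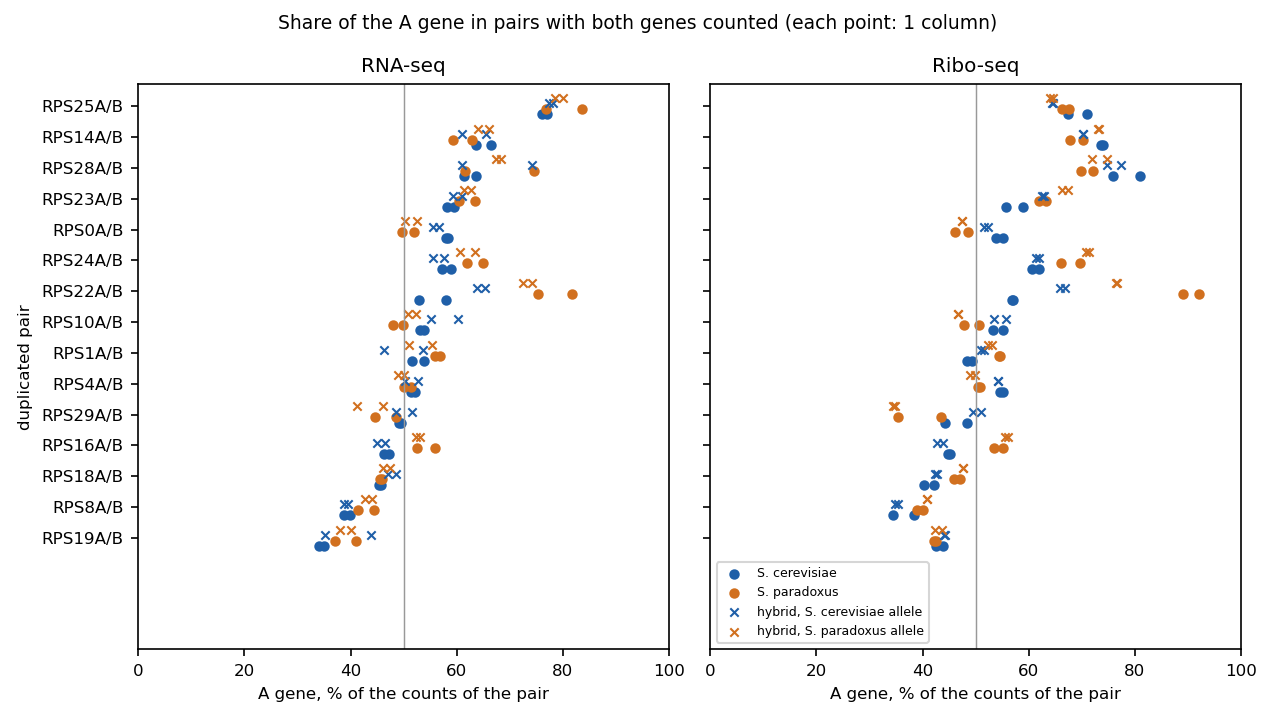
Share of the A gene in the counts of 15 of the 16 pairs with both genes counted (horizontal axis, percent), in RNA-seq (left) and Ribo-seq (right), with each point 1 column, circles the parents and crosses the hybrid alleles. RPS22 shows the widest gap between the parents, 56.9% against 90.5% on average in Ribo-seq, and RPS16 keeps the S. cerevisiae points below the S. paradoxus points in both assays.

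Within each strain, Ribo-seq was set against RNA-seq relative to all genes. In S. cerevisiae 25 members were higher in Ribo-seq and 0 lower, beside 25.5% higher of all genes, with a median of 0.61. In S. paradoxus 17 were higher, beside 17.7% of all genes, and 1, RPS22B, was lower, beside 23.2%, with a median of 0.45. In the hybrid 19 members were higher and 0 lower for the S. cerevisiae alleles (median 0.47, beside 21.0% higher of all genes), and 22 and 0 for the S. paradoxus alleles (median 0.53, beside 21.0%). These signs hold relative to other genes: with total counts as the only scaling the members' medians were -0.07, 0.01, 0.05 and 0.09 and those of all genes -0.72, -0.50, -0.48 and -0.51, in the same order.

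RPS25B (YLR333C) was among the 5 leading members in all 4 groups. It had 464 and 459 CPM of mRNA and 812 and 1054 of occupancy in S. cerevisiae, or 1.01 (SE 0.21, edgeR adjusted p = 0.00115). In S. paradoxus it had 675 and 534 against 1202 and 1375, or 1.09 (SE 0.21, edgeR adjusted p = 0.00112), and in the hybrid 1.35 and 1.34. Its occupancy lay above its mRNA in every column of each group. The S. cerevisiae call was lost with total counts as the only scaling (0.33, edgeR adjusted p = 0.169), while the other RPS25B calls held under every alternative tried. RPS25A, its partner, had 0.47, -0.01, 0.39 and 0.26 in S. cerevisiae, S. paradoxus and the S. cerevisiae and S. paradoxus alleles.

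RPS24A was among the 5 leading members in 3 of the groups, with 0.93 in S. paradoxus and 1.17 and 1.23 in the alleles. The other leading members of S. cerevisiae were RPS29B (1.16, SE 0.21, edgeR adjusted p = 0.000494), RPS11A (1.09), RPS15 (1.05) and RPS19A (1.05), and those of S. paradoxus RPS27A (0.94), RPS21A (0.90) and RPS11A (0.85). For the S. cerevisiae alleles they were RPS30A (1.24), RPS7A (1.08) and RPS18B (1.03), and for the S. paradoxus alleles RPS21A (1.25), RPS7A (1.14) and RPS18A (1.01). With total counts as the only scaling the calls of RPS29B, RPS15 and RPS19A in S. cerevisiae and of RPS24A and RPS27A in S. paradoxus were lost. Those of RPS18B, RPS18A and RPS21A in the alleles were lost too, and also without hybrid Ribo-seq replicate 1. The calls of RPS11A, RPS7A and RPS30A, and of RPS24A in the alleles, held under every alternative tried. RPS22B in S. paradoxus had -0.83 (226 and 131 CPM of mRNA, 70 and 130 of occupancy), and its groups touched without overlapping. The RPS22B call was lost without S. paradoxus RNA-seq replicate 1 (-0.38, edgeR adjusted p = 0.338) or Ribo-seq replicate 1 (-0.45, edgeR adjusted p = 0.284), without either S. cerevisiae RNA-seq library (adjusted p of 0.0509 and 0.0513), or when one of the hybrid Ribo-seq libraries was omitted (0.0608 and 0.0610). The RPS21A call in S. paradoxus was lost in 12 alternatives, among them those without S. paradoxus RNA-seq replicate 2 (0.68, edgeR adjusted p = 0.263), without S. paradoxus Ribo-seq replicate 2 (0.78, edgeR adjusted p = 0.184) and with total counts as the only scaling (0.46, edgeR adjusted p = 0.269).

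The 29 members with an intron in the coding region had higher medians of this value than the 19 without. In S. cerevisiae the medians were 0.68 and 0.37, and in S. paradoxus 0.56 and 0.23. For the S. cerevisiae alleles they were 0.69 and 0.36, and for the S. paradoxus alleles 0.65 and 0.29. The difference between these groups of genes was not tested.

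The number of members that passed varied with the libraries, and all were higher in Ribo-seq unless stated. In S. cerevisiae 14 passed without S. cerevisiae Ribo-seq replicate 2 or RNA-seq replicate 1. In S. paradoxus the count was 9 without S. paradoxus Ribo-seq replicate 1, 11 (10 higher, 1 lower) without replicate 2, 7 (6 higher, 1 lower) without its RNA-seq replicate 2, 9 without hybrid Ribo-seq replicate 1, 10 without its replicate 2, and 28 (27 higher, 1 lower) without hybrid RNA-seq replicate 1. For the S. cerevisiae alleles it was 11 without either hybrid Ribo-seq library and 34 without hybrid RNA-seq replicate 1. For the S. paradoxus alleles it was 8 and 9 without hybrid Ribo-seq replicate 1 and 2, and 36 without hybrid RNA-seq replicate 1.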

How the data were processed

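RNA-seq and Ribo-seq libraries were made strand-specifically, per the labels' protocols. The authors deposited raw read counts, 16 columns by 5226 genes, per the file headers, with 8 parental columns headed "Mix" (a heading that no source used here explains) and 8 hybrid allele columns. CASAVA 1.8, cutadapt 1.2.1, Bowtie 0.12.8, bedtools 2.17.0 and sacCer3 are named per the submitters' processing notes; settings, the S. paradoxus assembly and the treatment of reads shared by paralogs or alleles: not given in the sources used here. Symbols came from the R64 gene table, which matched 5183 of the IDs. The 40S assembly factor RIO1 was not matched.

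Tests used edgeR 4.0.16 in R 4.3.3 (TMM, filterByExpr at a minimum count of 10, 8 group means over 16 columns, quasi-likelihood test, Benjamini-Hochberg at 0.05 over all 5158 genes tested), checked on simulated counts. The simulated columns were independent, so that check did not cover deviations shared by the hybrid alleles of a library. In the fit of 16 columns the spread estimate rested on 8 residual degrees of freedom, and the common BCV (biological coefficient of variation) was 0.179. Depth was 6116133 to 8910405 counts per column, and intervals on counts cover counting error only. Deviations of hybrid alleles of a library correlated by 0.80 (RNA-seq) and 0.35 (Ribo-seq) over the 5158 genes tested, so their paired fit is given too. The S. cerevisiae and S. paradoxus libraries of equal number (0.21 and 0.10) come from separate strains. The labels tie them to no shared culture or day, and they were not paired. Alternatives were DESeq2 1.42.0, limma 3.58.1 voom with a random library effect (correlation 0.733), RLE, no filter, TMM without ribosomal protein genes, ortholog length offsets, pairs summed, parental columns alone, a replicate block and each library left out. The members and lists were chosen with earlier results of these data known. Full statistics were given to at most 5 called members with the largest log2 value in each direction of a comparison, and values for single-copy genes and the pairs described; members named beyond these were chosen after their values were seen. Some members enter the counts and medians but are not reported individually here.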

Additional observations from a re-analysis of the deposited data

Results flagged for a closer look

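RPS14B was the 1 member that passed, in both assays, the test of whether the species difference changed between separate and shared cells. The parental minus allelic value was -0.95 in mRNA (edgeR adjusted p = 0.0270) and -0.99 in occupancy (edgeR adjusted p = 0.0302). In both assays both S. cerevisiae parental values lay below both S. paradoxus values, and both S. cerevisiae alleles lay above both S. paradoxus alleles. Over the alternatives tried the adjusted p ran from 0.00181 to 0.113 in mRNA and from 0.00215 to 0.234 in occupancy. The direction was not particular to RPS14B. The value was below 0 for 47 of 48 members in each assay, and the lowest in mRNA, -1.08, was that of another member. RPS11A had the same order of columns as RPS14B in both assays. With a replicate block within strain or with voom, further members passed in mRNA, as given above with the shares of all genes.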

How the results depend on the processing

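No named result changed sign under any alternative run for it, 19 to 21 of the 23 for each, and 14 of 46 kept their call in all that were run for them. The counts of members called that moved by over 1.5 times are as follows, by setting, with the cause not tested unless the setting has fewer features. Where the share of all genes called by a setting is not given above, its count does not compare the members with other genes. For parental minus allelic mRNA, 4 members were called with RLE, 12 with DESeq2, 3 with TMM without ribosomal protein genes, 14 with a replicate block within strain, 25 with voom, 0 with pairs summed and 0 with total counts only. For parental minus allelic occupancy, DESeq2 called 3, voom 7 and pairs summed 0. For allelic mRNA, voom called 17 and the hybrid library as a replicate block 27. For allelic occupancy, DESeq2 called 4, the replicate block within strain 1, voom 15 and the hybrid library block 21. For allelic translation efficiency, voom called 4 and the hybrid library block 7. For parental occupancy, pairs summed called 4 and the parental columns alone 17. For parental mRNA, total counts only called 7. For hybrid mRNA against S. cerevisiae, pairs summed called 9 and total counts only 3, and against S. paradoxus the replicate block called 0. For hybrid occupancy against S. cerevisiae, DESeq2 called 11, TMM without ribosomal protein genes 7, the replicate block 5 and pairs summed 1, and against S. paradoxus DESeq2 called 2 and pairs summed 0. For Ribo-seq over RNA-seq, total counts only called 7 in S. cerevisiae, 5 in S. paradoxus, 12 for the S. cerevisiae alleles and 4 for the S. paradoxus alleles, and pairs summed 12 for the S. cerevisiae alleles.

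Leaving out 1 library at a time gave 5 to 37 members in parental mRNA, 2 to 23 in parental occupancy, 0 to 2 in allelic mRNA, 0 to 5 in allelic occupancy, 0 to 1 in allelic translation efficiency, 0 to 11 and 0 to 7 in parental minus allelic mRNA and occupancy, 14 to 36 and 7 to 28 in Ribo-seq over RNA-seq of S. cerevisiae and S. paradoxus, 11 to 34 and 8 to 36 in that of their alleles, 0 to 33 and 0 to 18 in hybrid mRNA against S. cerevisiae and S. paradoxus, and 0 to 15 and 0 to 2 in hybrid occupancy against them. Parental translation efficiency, and its difference from the allelic one, stayed at 0 to 0. In the parents, blocking by replicate number within strain called 29 members in mRNA (0 higher, 29 lower). The share of all genes called is not given for that fit or for those with a library left out. A library left alone in its group was assumed to vary like the others.

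Each group had 2 libraries, which limits the precision of every value.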
